A study of Mus musculus with 4 samples.

Results

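The 9 genes described here, Sag, Pdc, Gnat1, Gnb1, Gngt1, Pde6a, Pde6b, Pde6g and Rcvrn, encode proteins of the rod light response, and each was found by its symbol among 78334 gene identifiers. They were followed in cells panned and sorted as retinal ganglion cells, whose axons make up the optic nerve, as a measure of rod RNA in those cells. Of the 9 genes, 6 had counts, and all 6 had fewer in both libraries of the anti-miR132-3p shRNA than in either library of the scramble shRNA, an arrangement found in 20.9% of all genes with a count. Sag, the rod arrestin gene, had 131 counts in the scramble group and 2 in the anti-miR132-3p group, and Pdc, the phosducin gene, had 61 and 3. Gnat1, Pde6g and Rcvrn had 0 counts in every library.

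Rods turn light into an electrical signal through a G protein cascade. Light activates the photopigment, which activates transducin, a G protein built from an alpha, a beta and a gamma subunit. The alpha subunit relieves the inhibitory subunits of a phosphodiesterase, the enzyme lowers cyclic GMP, and cation channels of the outer segment close. Arrestin, phosducin and recoverin limit or adapt the response.

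The eyes of wild-type mice of both sexes received an adeno-associated virus of serotype 2 (AAV2) at 8 weeks of age, the optic nerve was crushed (ONC) 2 weeks later, and cells were collected 2 weeks after the crush. The scramble shRNA AAV2 and the anti-miR132-3p shRNA AAV2, which targets the microRNA miR-132-3p, both also expressed mCherry, so the control animals carried the virus, the reporter and the injury too. Retinas, 10 per condition, were pooled, panned for the surface antigen Thy1 and sorted for mCherry, with about 5000 cells per replicate and about 40% of ganglion cells transduced. Polyadenylated RNA was sequenced in 2 libraries per group. In the count table the scramble shRNA was identified by exclusion: its columns name mCherry, which both vectors carry, and the others name miR132. Every direction given here depends on that reading. The hairpin inserts and the microRNA are shown because they are the only labelled difference between the groups, with capitals marking the seed, bases 2 to 8 of the microRNA, and its complement in the insert.
mmu-miR-132-3p (RefSeq, GRCm38.p6): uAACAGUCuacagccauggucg
anti-miR132-3p insert: cgaccatggctgtaGACTGTTa
scramble insert: tcgagggcgacttaaccttagg

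Library totals were 1731199 to 1846637 counts. Within a group the 2 libraries agreed within sampling noise (chi-square per degree of freedom 1.02 and 1.00, p = 0.0954 and 0.486, against 4.01 to 4.03 across groups). A pair thus counts as 1 sample, which leaves n = 1 in each group, with no SD and no replicate check of any difference. Counts below are given per library, and CPM is a count scaled by library total and TMM factor, given over both libraries of a group. Each fold has an exact 95% interval (Clopper-Pearson), which reflects counting error alone. Likewise, p-values concern the reads in these libraries and not the conditions. Of 20 ganglion cell markers, all had counts, and their summed level was 4550 CPM in the scramble group and 4344 CPM in the other. The defining factor gene Pou4f2, named after its values were seen, had 3 to 5 counts per library. It was the lowest of these 20 markers, and the 19 others had enough counts to be tested.

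Promoter sequences were available for 5 of the 9 genes, Sag, Pdc, Gnb1, Gngt1 and Pde6b (RefSeq, build GRCm38.p6, 250 bases before to 50 after the start site). Those of Sag, Pdc and Gngt1 are shown because these genes had 0 to 3 counts per library with the anti-miR132-3p shRNA, and that of Gnb1 because it had 882. Capitals mark matches, on either strand, to 4 motifs. The first is TAATCC, a core form bound by the photoreceptor factor Crx. The next is its variant TAAGCC. A half-site of the rod factor Nrl and other Maf factors is TGCTGA. The last, a TATA box, is TATAAA.
Sag, GRCm38.p6, chr1:87803430-87803729, plus strand: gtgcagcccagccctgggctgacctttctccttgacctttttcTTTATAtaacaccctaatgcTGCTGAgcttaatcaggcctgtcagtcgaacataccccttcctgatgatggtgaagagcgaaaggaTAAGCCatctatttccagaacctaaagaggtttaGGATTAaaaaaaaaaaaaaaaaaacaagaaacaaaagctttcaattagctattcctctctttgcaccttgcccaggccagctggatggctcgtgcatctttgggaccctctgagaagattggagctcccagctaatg
Pdc, GRCm38.p6, chr1:150319167-150319466, plus strand: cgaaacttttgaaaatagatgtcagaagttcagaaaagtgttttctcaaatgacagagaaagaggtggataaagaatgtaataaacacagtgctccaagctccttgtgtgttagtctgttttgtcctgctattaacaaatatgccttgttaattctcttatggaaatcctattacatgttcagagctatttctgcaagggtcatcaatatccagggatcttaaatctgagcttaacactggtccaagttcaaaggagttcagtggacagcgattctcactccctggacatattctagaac
Gngt1, GRCm38.p6, chr6:3993758-3994057, plus strand: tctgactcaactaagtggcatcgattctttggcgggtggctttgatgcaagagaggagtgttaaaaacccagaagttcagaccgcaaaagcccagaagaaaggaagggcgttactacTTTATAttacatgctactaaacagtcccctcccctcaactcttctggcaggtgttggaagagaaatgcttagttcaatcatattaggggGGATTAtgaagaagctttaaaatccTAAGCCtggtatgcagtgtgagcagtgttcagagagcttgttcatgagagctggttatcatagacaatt
Gnb1, GRCm38.p6, chr4:155491111-155491410, plus strand: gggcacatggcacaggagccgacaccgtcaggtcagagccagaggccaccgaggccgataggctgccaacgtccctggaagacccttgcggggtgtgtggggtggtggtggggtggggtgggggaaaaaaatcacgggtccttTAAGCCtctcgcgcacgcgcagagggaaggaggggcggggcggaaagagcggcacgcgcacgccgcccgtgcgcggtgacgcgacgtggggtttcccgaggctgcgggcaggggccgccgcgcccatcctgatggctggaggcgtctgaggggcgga

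Sag held matches to all 4 motifs, with TAATCC on the minus strand 87 bases before the start site. Gngt1 held TAATCC 44 bases and TAAGCC 19 bases before its start site. Gnb1 held TAAGCC alone, Pde6b held TGCTGA alone, 8 bases before its start site, and Pdc held none of the 4. Across the 32851 promoters of that table, 7.06% held TAATCC, 9.48% TAAGCC, 19.5% TGCTGA and 13.6% TATAAA, on either strand. TAATCC was thus in 2 of 5 promoters of the rod genes, TAAGCC in 3, TGCTGA in 2 and TATAAA in 2. No motif overlapped another in these windows. A match describes the letters and not a bound site.

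**Figure D1:**
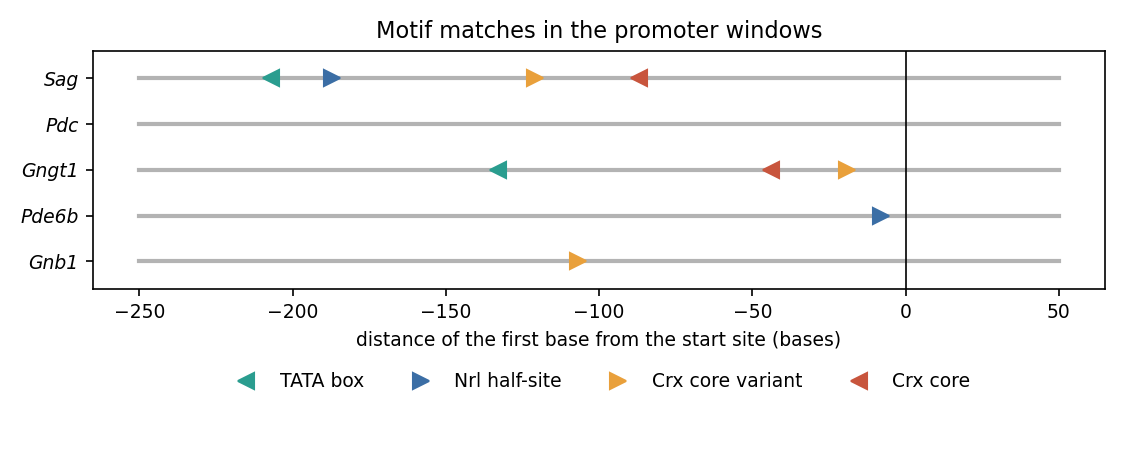
Motif matches (triangles, pointing right for the plus and left for the minus strand) by distance of their first base from the start site, in bases, for the 5 promoters. Sag has 4 matches and Gngt1 3, while Pde6b and Gnb1 have 1 each and Pdc none.

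The scramble libraries held 70 and 61 counts of Sag, and the anti-miR132-3p libraries 1 and 1. Sag encodes the arrestin that binds the activated rod photopigment and ends its signal. Both anti-miR132-3p libraries were below both scramble libraries by a wide margin, and the libraries of a group were close. The level was 35.8 CPM against 0.572 CPM, 62.6-fold lower (17.0 to 522). edgeR's quasi-likelihood test called Sag lower (log2 fold change -5.80, adjusted p = 5.52e-08).

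Pdc encodes phosducin, which binds the beta and gamma subunits of transducin. Its counts were 31 and 30 in the scramble group and 3 and 0 in the anti-miR132-3p group, so the groups did not overlap. The level was 16.7 CPM against 0.858 CPM, 19.4-fold lower (6.34 to 96.8). edgeR's quasi-likelihood test called it lower (log2 fold change -4.17, adjusted p = 4.01e-05). The fitted change rests on the 3 counts of 1 anti-miR132-3p library, since it was -7.91 without replicate 1 and -3.23 without replicate 2. Of 11427 tested genes, Sag had the lowest and Pdc the second lowest log2 fold change. A call at a change of at least 4-fold in that direction was made for 6 genes, 0.0525% of those tested. Both passed the filter on low counts only through the scramble libraries, so a difference was built into their being tested.

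The transducin subunits differed from one another. Gnat1, the rod alpha subunit, had 0 counts in all 4 libraries, where 3 counts would correspond to 1.62 to 1.73 CPM on library totals. Gngt1, the rod gamma subunit, had 6 and 16 counts in the scramble libraries and 0 and 0 with the anti-miR132-3p shRNA. Its level was at least 5.23-fold lower by the exact interval, and 7.0-fold lower if 3 counts are assumed for the anti-miR132-3p group. The 6 and 16 counts of the scramble pair gave p = 0.0525 by an exact two-sided binomial test. Gngt1 did not pass the filter on low counts and has no call.

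Gnb1, the beta subunit, is shared by rods and many other neurons, and it did not follow Sag and Pdc. It had 1201 and 1185 counts in the scramble libraries and 882 and 882 with the anti-miR132-3p shRNA. The groups did not overlap and the libraries of each were nearly equal. The level was 652 CPM against 505 CPM, 1.29-fold lower (1.21 to 1.37), and edgeR's quasi-likelihood test called it lower (log2 fold change -0.37, adjusted p = 7.26e-06). Of all tested genes, 13.1% had a log2 fold change at or below that of Gnb1.

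The phosphodiesterase genes also differed among themselves. Pde6a, a catalytic subunit, had 9 and 7 counts in the scramble libraries and 1 and 0 with the anti-miR132-3p shRNA, a ratio of 15.3-fold lower (2.37 to 641), and was not tested for low counts. Pde6b, the other catalytic subunit, had 43 and 36 counts against 23 and 20. All of its libraries held more than 10 counts, and the groups did not overlap. The level was 21.6 CPM against 12.3 CPM, 1.75-fold lower (1.20 to 2.61). edgeR's quasi-likelihood test called Pde6b lower (log2 fold change -0.81, adjusted p = 0.0296), but DESeq2's Wald test did not (adjusted p = 0.326). The intervals of Sag and Pdc lay wholly beyond that of Pde6b, and so did that of Gngt1, whereas that of Pde6a reached into it. Of all tested genes, 1.89% had a log2 fold change at or below that of Pde6b. Pde6g, the inhibitory subunit, had 0 counts in all 4 libraries.

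Rcvrn, which encodes recoverin, a calcium sensor that acts on the kinase of the photopigment, had 0 counts in all 4 libraries. It shared this with Gnat1 and Pde6g, although the scramble libraries held 131 counts of Sag. In an older annotation (GENCODE M21) the 3 genes at 0 overlapped no exon of another gene, and the only overlapping gene body, Glp2r at Rcvrn, had 0 counts. Why genes that rods express together were at 0 beside Sag was not tested.

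**Figure D2:**
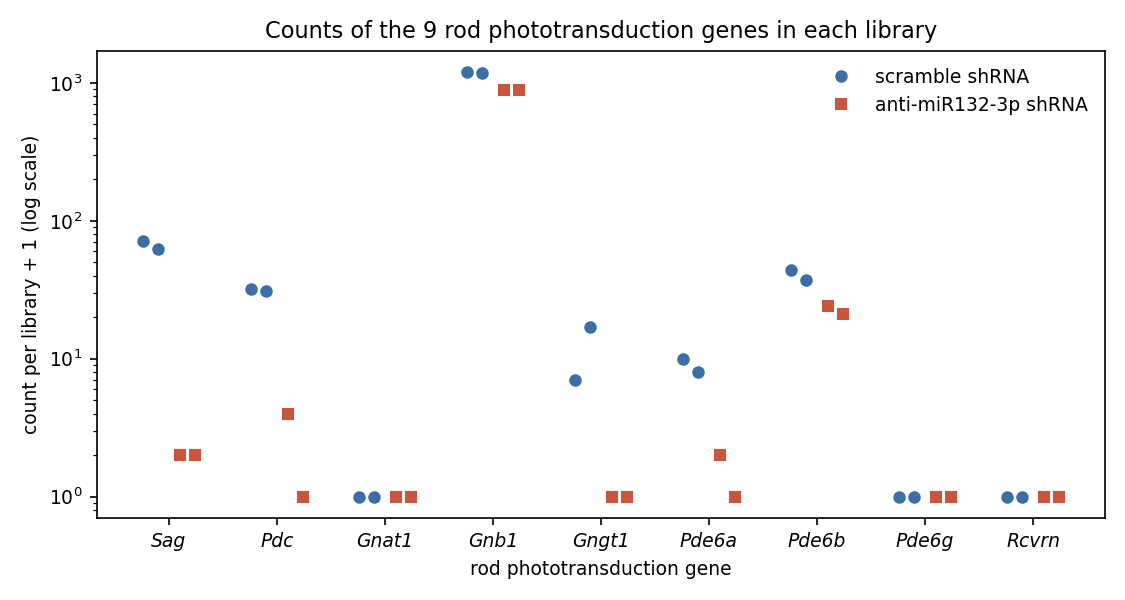
Count plus 1 on a log axis for the 9 genes in each of the 4 libraries, circles for the scramble shRNA and squares for the anti-miR132-3p shRNA. Sag falls from 70 and 61 counts to 1 and 1, Gnb1 from 1201 and 1185 to 882 and 882, and Gnat1, Pde6g and Rcvrn lie at 0.

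In all, 4 of the 9 genes were tested, Sag, Pdc, Gnb1 and Pde6b, and 4 were called lower and 0 higher, beside 10.4% of all tested genes called lower and 13.5% called higher. For the 6 genes with a count, both anti-miR132-3p libraries were below both scramble libraries, beside 20.9% of the 23361 genes with a count. That share was not matched for depth. The median log2 fold change was -2.49 over the 4 tested genes and -0.0030 over all 11427. Since Sag and Pdc were tested only because of their scramble counts, this count and median are a description. When any 1 of the 4 libraries was omitted, 0 genes of the whole table were called by edgeR's quasi-likelihood test (2652 to 2767 at an unadjusted p under 0.05), and the adjusted p of the 4 genes was 0.19 to 0.24. With each pair summed and an assumed coefficient of variation of 0.2 between pools, edgeR's likelihood ratio test kept Sag (adjusted p = 2.7e-11) and Pdc (adjusted p = 9.21e-06) and did not call Gnb1 and Pde6b. At a coefficient of variation of 0.4 that test kept Sag (adjusted p = 0.0025) and lost Pdc (adjusted p = 0.0986). On the 4 libraries, edgeR's quasi-likelihood test also lost Pdc without a filter on low counts (adjusted p = 0.0852) and with a filter of 1 CPM in 2 libraries (adjusted p = 0.0537), and it kept Sag (adjusted p = 0.044 and 0.0146).

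Summed over the 8 genes without Gnb1, the scramble libraries held 159 and 150 counts and the anti-miR132-3p libraries 28 and 21. The sum was 84.4 CPM against 14.0 CPM, 6.02-fold lower (4.44 to 8.32). Its make-up changed: Sag gave 42.4% of it in the scramble group and 4.08% in the anti-miR132-3p group. Pde6b gave 43 of the 49 counts that remained. Without Pde6b as well, the sum was 230 counts against 6, 36.6-fold lower (16.6 to 101). With Gnb1 included the sum was 737 CPM against 519 CPM, 1.42-fold lower (1.34 to 1.51), and Gnb1 made up 88.5% and 97.3% of its counts. In bulk RNA of a sorted pool, fewer rods and less of these transcripts per rod cannot be told apart. Whether all the counts in these sums came from rods was not tested.

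**Figure D3:**
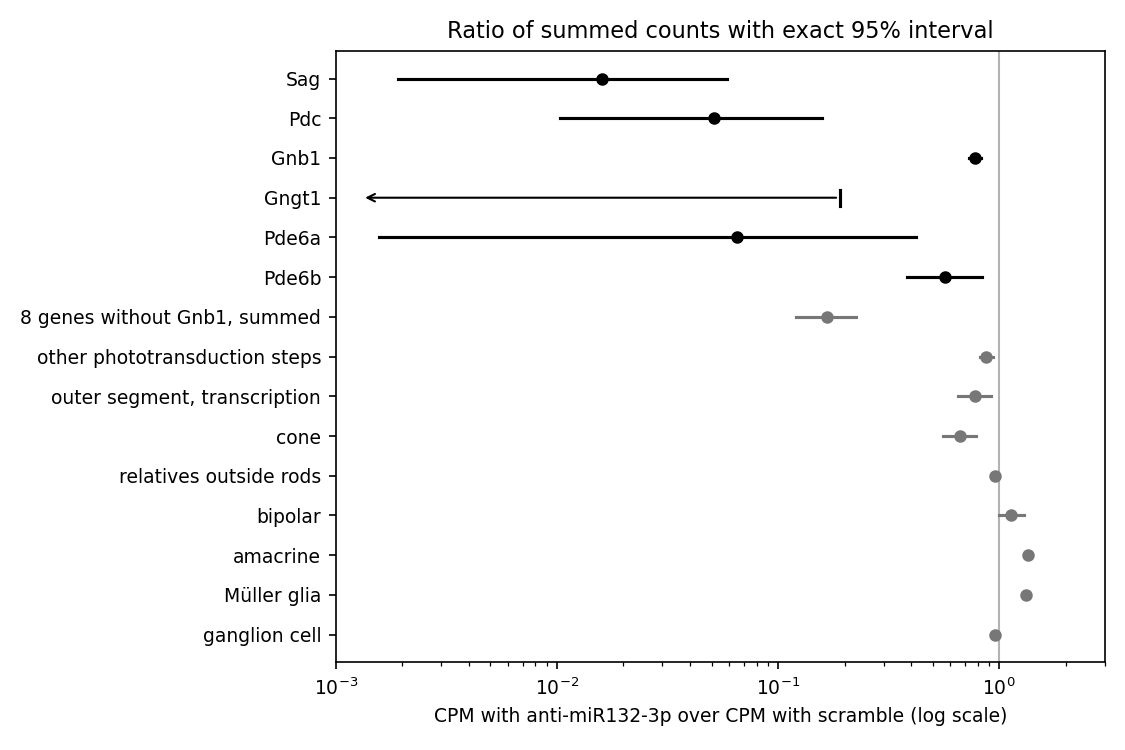
Ratio of CPM with the anti-miR132-3p shRNA to CPM with the scramble shRNA on a log axis, with exact 95% intervals, for the 6 genes with counts (black) and for summed lists (grey). Gngt1, at 0 with the anti-miR132-3p shRNA, is drawn as the upper limit of its ratio, and Sag and Pdc lie far below Gnb1 and Pde6b.

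Compared per length (CPM per kilobase of all exons joined, lengths from GENCODE M21), the levels with the scramble shRNA were in the order Gnb1, Pdc, Pde6b, Sag, Gngt1 and Pde6a. Gnb1 was at 153 CPM per kilobase (exact Poisson 95% interval 147 to 159). Pdc was at 4.98 (3.81 to 6.39), Pde6b at 4.30 (3.40 to 5.35) and Sag at 4.02 (3.36 to 4.77), and their intervals overlapped. The joined exons of all annotated transcripts came to 8904 bases for Sag, 5026 for Pde6b and 3350 for Pdc. Transcripts in these cells may be shorter, which the intervals do not include, so the order depends on the annotation. Gngt1 was at 1.71 (1.07 to 2.59) and Pde6a at 0.933 (0.533 to 1.51), and their intervals overlapped too. Gnat1, Pde6g and Rcvrn have no place in this order. Taken as measured, their 0 counts would allow up to 0.271, 0.354 and 0.788 CPM per kilobase at 3 counts over the group, but whether these zeros measure the transcripts was not tested. With the anti-miR132-3p shRNA the order was Gnb1 at 118, Pde6b at 2.45, Pdc at 0.256, Sag at 0.0643 and Pde6a at 0.061 CPM per kilobase, with Gngt1 at 0. Pde6b was thus the only one of the rod genes besides Gnb1 that stood above 1 CPM per kilobase there.

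Other rod genes were mostly near or under the limit of testing. The few that could be tested did not share the size of the change in Sag, and whether their counts came from rods was not tested. Of 15 genes of other steps of rod phototransduction, 14 had counts and 4 were tested, with a median log2 fold change of -0.18. Of these 4, 1 was called lower and 1 higher, beside 10.4% and 13.5% of all tested genes. Gnb5, a beta subunit that works with RGS proteins in many neurons, had 975 counts against 820 (adjusted p = 0.0471 by edgeR's quasi-likelihood test). Rgs9, which speeds the shut-off of transducin, had 5 and 12 counts against 22 and 20, 2.59-fold higher (1.44 to 4.85, adjusted p = 0.0171 by the same test). Rgs9 passed the filter on low counts only through the anti-miR132-3p libraries, where it is high, so its call is a description, as for Sag and Pdc. Unc119, with 38 counts against 32, and Pde6d, with 576 against 481, were tested and not called. Of 18 genes of the rod outer segment and of rod transcription, 15 had counts, 3 were tested and 0 were called, with a median of 0.23. The 3 were Prom1 with 81 counts against 95, Reep6 with 57 against 64 and Rom1 with 61 against 45. Rdh12, a retinol dehydrogenase of photoreceptors, had 24 counts against 13 and was not tested.

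The genes of these lists that were too low to test are described by their counts, a split made after the values were seen. There were 26, of which 22 had counts, 175 in all in the scramble group and 46 in the anti-miR132-3p group, 3.63-fold lower (2.61 to 5.14). Both anti-miR132-3p libraries were below both scramble libraries for 12 of the 22 and above them for 2, beside 11.6% and 19.6% of all genes with a count that were not tested. These shares were not matched for depth, and a gene with 1 count in all, such as Guca1a, can have neither arrangement. Guca1b, an activator of guanylate cyclase, had 16 counts against 0. Cnga1, a subunit of the rod cation channel, had 10 against 0, and Nrl, the rod transcription factor, had 11 against 3. Tulp1 had 13 counts against 0. Prph2, a structural protein of the outer segment, was at 0 in all libraries, as were Gucy2f, Samd7 and Rdh8. These examples were chosen after their values were seen.

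The cone genes summed to 98.7 CPM with the scramble shRNA against 65.2 CPM, 1.51-fold lower (1.28 to 1.79). Of 12 in the table, 11 had counts and 3 were tested, of which 1 was called lower and 0 higher. The shares of all tested genes were 10.4% and 13.5%. The gene called was Slc24a2, with 177 counts against 114 (1.48-fold lower, 1.17 to 1.89, adjusted p = 0.0201 by edgeR's quasi-likelihood test). Cngb3, with 27 counts against 20, and Gnb3 were not called. Slc24a2 alone gave 49.0% of the cone sum in the scramble group and 50% in the anti-miR132-3p group. Whether its counts came from cones was not tested. The 9 cone genes too low to test held 75 counts against 16, 4.48-fold lower (2.59 to 8.23). Of the 8 with counts, 4 had both anti-miR132-3p libraries below both scramble libraries and 0 had both above. The shares of all untested genes with a count were 11.6% and 19.6%, not matched for depth. Opn1mw, a cone opsin, had 21 counts against 1, Gnat2, the cone transducin alpha subunit, had 17 against 1, and Arr3, the cone arrestin, had 16 against 3. Gnb3, the cone beta subunit, which ON bipolar cells also express, had 82 against 78. These 4 examples too were chosen after their values were seen.

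**Figure D4:**
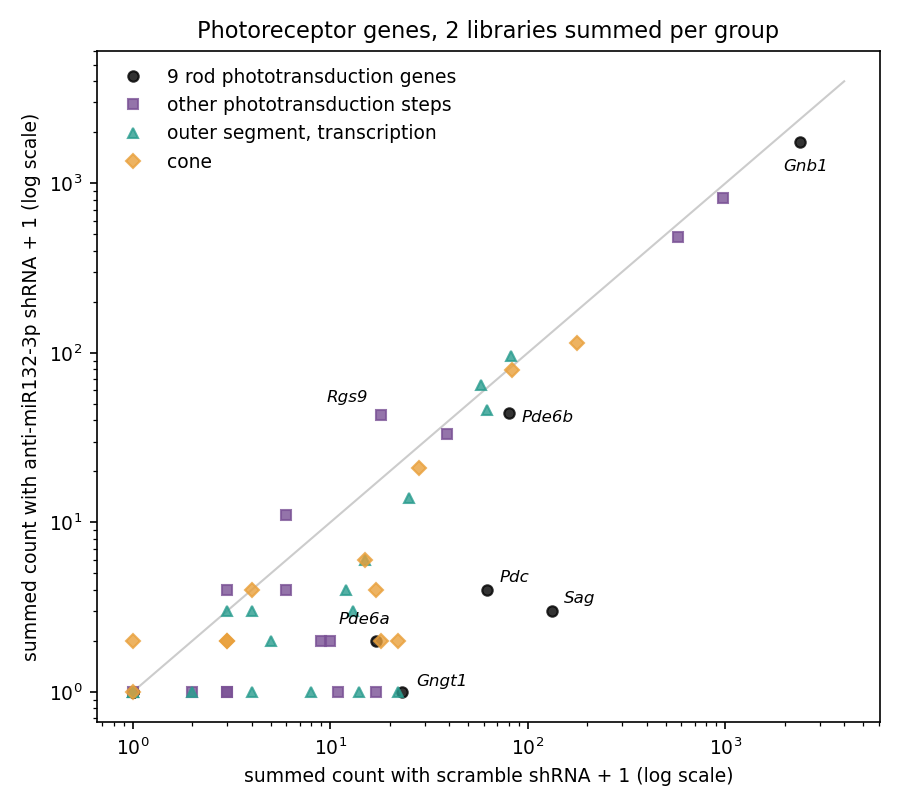
Summed count plus 1 with the scramble shRNA (x) and the anti-miR132-3p shRNA (y), both on log axes, for the 9 rod phototransduction genes and the other rod and cone lists, with the line of equal counts. Sag, at 131 against 2, and Pdc, at 61 against 3, lie far under the line, and Rgs9 lies above it.

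Relatives of the 9 genes that are expressed outside rods differed little in their summed level, 3475 CPM against 3338 CPM, 1.04-fold lower (1.02 to 1.07). Of 23, all tested, 5 were called lower and 3 higher, beside 10.4% and 13.5% of all tested genes. Their median log2 fold change was 0.0039. Both anti-miR132-3p libraries were below both scramble libraries for 10, beside 20.9% of all genes with a count, and above them for 6. Gng3, a gamma subunit of neurons, had 3248 counts against 2595 (1.20-fold lower, 1.13 to 1.26, adjusted p = 2.38e-04 by edgeR's quasi-likelihood test). Ncs1 and Hpca, calcium sensors related to recoverin, were called in opposite directions by that test, Ncs1 with 2056 counts against 1803 (adjusted p = 0.0442) and Hpca with 891 against 1044 (adjusted p = 0.0020). Hpcal4, of the same family, was called higher with 450 counts against 566 (adjusted p = 0.0042). Arrb1, a widely expressed arrestin, was chosen after its values were seen. It had 49 and 61 counts in the scramble libraries and 88 and 109 with the anti-miR132-3p shRNA, 1.88-fold higher (1.48 to 2.39, adjusted p = 0.0012 by the same test). Arrb2, the other widely expressed arrestin, had 135 counts against 142 and was not called.

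Among markers of amacrine, Müller, bipolar, horizontal, microglial and pigment epithelial cells, 0 were called lower, beside 10.4% of all tested genes called lower and 13.5% called higher. For 16 amacrine genes, of which 11 had counts and 10 were tested, 6 were called higher and 0 lower, with 3380 and 3402 CPM in the scramble libraries and 4585 and 4584 CPM in the anti-miR132-3p libraries. For 15 Müller glia genes, of which 9 were tested, 3 were called higher and 0 lower, with 1838 and 1855 CPM against 2442 and 2449 CPM. Dkk3 alone made up 58.5% and 65.3% of that sum, with 3955 counts against 5577. Apoe, with 69 counts against 218, and Slc6a11, with 125 against 327, were also called higher by edgeR's quasi-likelihood test (adjusted p = 2.67e-06 and 1.85e-06). Of the 15 genes, 5 had both anti-miR132-3p libraries above both scramble libraries and 3 had both below. Rlbp1, Aqp4 and Dbi, named after their values were seen, had both anti-miR132-3p libraries below both scramble libraries, with 44 counts against 26, 16 against 6 and 172 against 128. Rlbp1 and Dbi were not called, and Aqp4 was not tested. For 14 bipolar cell genes 3 were tested and 0 called, with 110 to 138 CPM against 132 to 150 CPM, and Grm6, which defines ON bipolar cells, was at 0. For 6 horizontal cell genes 3 were tested and 0 called, with 351 to 357 CPM against 339 to 361 CPM, and Lhx1 was at 0. Sept4 made up 67.4% and 69.7% of the horizontal cell sum. Microglia genes, of which 1 of 16 was tested and 0 called, were at 40.9 to 56.9 CPM against 59.5 to 75.6 CPM, with Trem2 and Itgam at 0. Pigment epithelium genes, of which 2 of 12 were tested and 0 called, were at 20.8 to 26.2 CPM against 13.2 to 21.2 CPM, with Rpe65 at 0. Of the 20 ganglion cell genes, 19 were tested, 5 called lower and 4 higher. The part of these cells in the difference of the rod genes was not tested.

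Across the 4 libraries, Pdc was the tested gene whose levels lay nearest to those of Sag, at a distance of 1.81 in log2(CPM + 1). Pde6b lay at 4.47, at rank 840 of the tested genes, and Gnb1 at 13.2. The 6 nearest genes outside the 9 were Aldh1a1, Ucn, Mc4r, Zfp78, Gpnmb and Zfp759, at distances of 2.51 to 3.25, and none of them is on the rod or cone lists. Aldh1a1, a retinaldehyde dehydrogenase, had 23 and 24 counts in the scramble libraries and 3 and 5 with the anti-miR132-3p shRNA. Ucn, which encodes the peptide urocortin, had 21 and 33 against 3 and 7. Their groups did not overlap, as in Sag, but both genes were picked for levels near those of Sag in these same libraries. Like Sag, they passed the filter on low counts only through the scramble libraries. Their ratios, 5.61-fold lower (2.63 to 13.7) and 5.16-fold lower (2.60 to 11.4), lay below the interval of Sag. This likeness is a description over 4 libraries from 2 pools.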

How the data were processed

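RNA of retinal ganglion cells sorted after optic nerve crush was sequenced in 4 libraries, 2 with each shRNA. Per the submitters' processing notes, reads were trimmed with Trimmomatic 0.39 and HISAT2 2.2.1 and SAMtools 1.10 are named beside Cuffdiff, Cufflinks and Cuffnorm, as is build GRCm39. For the counter, its annotation and its strand setting, the entry is: not given in the sources used here. The authors deposited whole-number read counts per gene, not normalized, for 78334 identifiers, of which 51486 could be named through a table of gene names. Genes that passed edgeR's filterByExpr (11427, with 98.65% of counts) were fitted with edgeR 4.0.16 (R 4.3.3) by the quasi-likelihood test with TMM scaling, and p-values were adjusted by the Benjamini-Hochberg method over all of them. A gene was called at an adjusted p under 0.05. The fit takes the 4 libraries as separate. The labels do not tie a group's libraries to separate animals, so p-values measure only the spread between these libraries, which may be technical. The script was tested on simulated data.

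The 9 genes and all lists were chosen with earlier results of these data known. Beside the 9 genes, the rule names from each list up to 4 called genes with the highest mean CPM, or the 4 highest where none was called, and the 6 genes nearest to Sag. Exact intervals (95%, scipy 1.17.1) condition on the summed count of both groups. Alternatives were other filters, scalings and tests (DESeq2 1.42.0, limma 3.58.1), a replicate block, each library left out, and each pair summed with an assumed coefficient of variation. Protein identity between relatives was not analysed here.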

Additional observations from a re-analysis of the deposited data

How the results depend on the processing

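The 4 tested rod genes were lower under every alternative run, but the calls depended on the filter, the test and the number of libraries. Against 4 rod genes, 1183 lower and 1540 higher genes, the table without a filter gave 1, 2 and 1, the filter of 1 CPM in 2 libraries 2, 183 and 307, and DESeq2 3, 276 and 477. Pdc and Pde6b were lost under both of these filters, and Gnb1 without a filter. With pairs summed, a coefficient of variation of 0.2 gave 2, 6 and 50, and of 0.4 gave 1, 1 and 13, where Sag had an adjusted p of 0.0025 and Pdc of 0.0986 by edgeR's likelihood ratio test. With 1 library left out these 3 numbers were 0 to 0, where the lone library of a group is assumed to vary like the other group. Other scalings, edgeR's likelihood ratio test on the 4 libraries and limma-voom kept the 4 rod calls. Replicate numbers gave no pairing (correlation of same-number deviations 0.0087 over 7482 genes), and the replicate block changed no rod call (4 lower; 1437 lower and 1740 higher in all). The 6.02-fold lower sum without Gnb1 was 1.42 with Gnb1, 3.62 without Gnb1 and Sag, and 36.6 without Gnb1 and Pde6b, an alternative chosen after seeing the data. It was 5.27 to 7.02 with 1 library left out. Depth limits the genes with few counts: 3 counts equal 1.62 to 1.73 CPM per library, and Gngt1 and Pde6a were not tested.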

Other observations

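Defining genes of amacrine cells were also at 0 beside abundant ones. Gad1, a GABA-synthesising enzyme, Slc32a1, the vesicular GABA transporter, and Tfap2b had 0 counts in all 4 libraries, while Gad2, the other GABA-synthesising enzyme, had 685 and 680 counts in the scramble libraries and 894 and 901 in the others, and edgeR's quasi-likelihood test called it higher (adjusted p = 2.29e-06). Of the 78334 identifiers, 54973 had 0 counts in all libraries. Why these genes were at 0, like Gnat1, Pde6g and Rcvrn among the rod genes, was not tested.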
